A study of Apis mellifera with 6 samples.

Results

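The sites described here are the stretches of chromatin that were called accessible in both drone brain libraries and in neither queen nor worker library. They were chosen by the calls themselves: the 6 deposited peak lists were merged wherever peaks overlapped by at least 1 bp, and a merged site on one of the 16 placed chromosomes was kept where it held a peak of Drone replicate 1 and of Drone replicate 2 and no peak of the 4 female libraries. This gave 2381 drone-only sites among 59043 merged sites, or 4.03%. Because the calls selected these sites, their presence in drones and absence in females is a description and was not tested.

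The libraries are ATAC-seq profiles of honey bee (Apis mellifera) brains, with 2 replicates each of queens, workers and drones, all newly eclosed adults bred from 1 mother queen. No treatment was given, and the groups differ in caste and sex: queens and workers are diploid females that differ in how they were reared, and drones are haploid males. Each library is a pool of brains without their optic lobes, and the hypopharyngeal glands were removed from the workers, so replicates differ as pools do. The lists held between 28026 and 39158 peaks, with 38341 and 31921 in the drone lists. All 4 female lists name their peaks with the same sequencing run, and the drone lists name no run. Whether drones were sequenced in another run is not stated. If they were, sex and run cannot be told apart in these lists.

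ATAC-seq uses the transposase Tn5, which inserts sequencing adapters where DNA is not wrapped around a nucleosome. Short fragments come from nucleosome-free stretches, where transcription factors can reach promoters near gene starts and enhancers in introns or between genes. Honey bees have no sex chromosomes, and sex follows from the allele state of the gene Csd, which acts through Fem on the splicing of the transcription factor Dsx.

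Most drone-only sites were small and shallow, and a few were among the highest peaks of the drone lists. The fold given by the peak caller is the pileup of fragments at the summit over the local background, with 1 added to each. It had a median of 4.96 in Drone replicate 1 and of 4.82 in Drone replicate 2. The middle 90% of sites lay between 3.41 and 8.17 in the first library and between 3.48 and 7.71 in the second. The median −log10 q was 6.50 in replicate 1 and 5.67 in replicate 2, and the median summit pileup solved from these values was 14 and 12 fragments. In the weaker of the 2 libraries the fold was under 5 at 1703 sites (71.5%), from 5 to 10 at 642 sites (27.0%), from 10 to 20 at 23 and at least 20 at 13. Sites called in both worker lists alone had at least 20-fold enrichment in both lists at 1 of 2099, and those called in both queen lists alone at 0 of 358, which allows a share of up to 0.838%.

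The drone replicates placed their summits close together. The distance between the summits of Drone replicate 1 and Drone replicate 2 had a median of 28 bp at the drone-only sites and of 20 bp at the 16239 sites called in all 6 lists. The folds of the replicates ranked the drone-only sites with a Spearman rho of 0.492 across sites, against 0.857 at the sites of all 6 lists, as a description over sites that share libraries and cover different ranges of fold. The median width of a drone-only site was 156 bp (range 72 to 550), against 151 bp over all merged sites and 257 bp at the sites of all 6 lists.

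**Figure D1:**
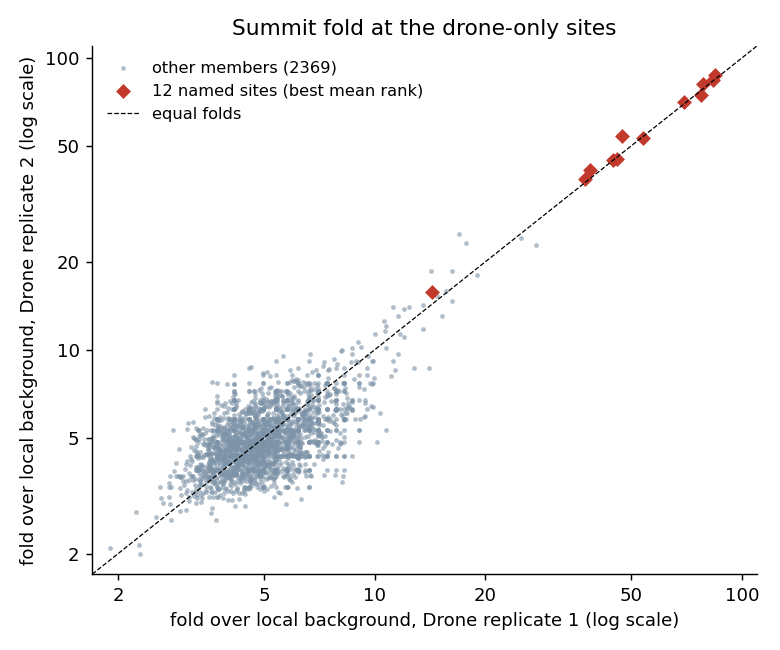
Fold over local background at the 2381 drone-only sites in Drone replicate 1 (x axis) and Drone replicate 2 (y axis), both on log scales, with the 12 named sites as diamonds and a dashed line of equal folds. Most points lie below 10-fold in both libraries, and 11 of the 12 named sites lie at or above 37.3-fold in both.

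The 12 sites that ranked best by −log10 q, averaged over the drone lists, were named. The first, in the lncRNA gene LOC107965194 (LG11:13777084-13777262), had 83.4-fold enrichment and a pileup of 610 fragments in Drone replicate 1, and 84.3-fold and 568 fragments in Drone replicate 2. It ranked 26 among the peaks of replicate 1 and 24 among those of replicate 2, and its summits fell on the same base. The lists do not show whether the fragments at such a site map to 1 place in the genome or whether all pools carry the same sequence there, so the folds of the named sites are those of called peaks, and what lies behind them was not tested. No female peak overlapped this site, and the nearest, 1446 bp away in Worker replicate 2, had 5.25-fold enrichment. A site of 318 bp at LG12:1614269-1614586 had 84.5-fold enrichment in Drone replicate 1 and 87.3-fold in Drone replicate 2. It was the 1 named site outside any gene body, 784 bp from LOC107965377. A Queen replicate 1 peak of 4.45-fold lay 192 bp from it.

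3 further named sites had between 69.5-fold and 81.6-fold enrichment. In the protein-coding gene LOC410140 (LG7:3446268-3446454) the fold was 77.6 in Drone replicate 1 and 74.8 in Drone replicate 2. This gene held another drone-only site within 5 kb, at LG7:3443593-3443706, with 15.6-fold and 16.0-fold enrichment. In LOC411155 (LG6:12371608-12371755) the fold was 69.5 in replicate 1 and 70.8 in replicate 2, and no female library had a peak within 12079 bp. In the overlapping lncRNA genes LOC100577971 and LOC107964011 (LG3:2042546-2042638) it was 78.5 and 81.6, with the nearest female peak 10398 bp away. Both of these last sites thus lay well apart from any female peak.

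The next 6 named sites had between 37.3-fold and 54.0-fold enrichment. They lay in LOC413224 (LG12:9984354-9984501, 47.1 in Drone replicate 1 and 54.0 in Drone replicate 2), in LOC410756 and the lncRNA LOC107965445 (LG1:26023973-26024147, 53.9 and 53.2), and in LOC411157 and the lncRNA LOC102653904 (LG6:11740685-11740758, 45.7 and 45.1). A site in LOC551736 (LG11:9735774-9735846) had 44.5-fold and 44.6-fold enrichment. LOC410573 held a pair of them, at LG15:9164158-9164312 with 38.5-fold and 41.4-fold and at LG15:9155916-9155987 with 37.3-fold and 38.6-fold enrichment. The replicates differed most in LOC413224, and the nearest female peak was between 1505 and 5063 bp away with at most 4.86-fold enrichment. The gene table gives these genes a number in place of a name, and no role is stated for them.

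The last named site differed from the others in its surroundings. It lay in the overlapping genes LOC100577912 and LOC412795 (LG15:8092295-8092408) and had 14.3-fold enrichment in Drone replicate 1 and 15.8-fold in Drone replicate 2, over a local background of 11.3 and 10.1 fragments. A strong Worker replicate 1 peak of 25.2-fold enrichment lay 561 bp away, so this drone-only summit stood beside chromatin that was called open in a female library too. A second drone-only site in the same genes (LG15:8092568-8092835) had 11.7-fold and 11.4-fold enrichment and a female peak 134 bp away.

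The 13 sites with at least 20-fold enrichment in both drone lists were chosen for that value after the folds were seen. Of them 12 lay inside a gene body, their widths ran from 72 to 318 bp, and 2 had a female peak within 500 bp. The ratio of the fold in Drone replicate 1 to that in Drone replicate 2 ran from 0.873 to 1.21 among them. The SD of its log2 was 0.108, against 0.336 at the other drone-only sites. Of the 23 sites with 10 to 20-fold in the weaker library, 3 lay in LOC410685 on LG1 and are given because they share a gene. In the weaker library, LG11:2091755-2091939 stood above all 3, with 19.0-fold in replicate 1 and 18.1-fold in replicate 2. LG1:19974745-19974864 had 17.8-fold and 23.1-fold, LG1:19976127-19976243 had 12.4-fold and 14.0-fold, and LG1:19984029-19984180 had 11.6-fold and 13.01-fold enrichment in replicates 1 and 2.

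At 3 drone-only sites the local background was above 30 fragments, and the fold was low although the pileup was high. At LG4:1192190-1192300, 5497 bp from the nearest gene, the pileup was 1156 fragments over a background of 607 in Drone replicate 1 (1.90-fold) and 1244 over 595 in Drone replicate 2 (2.09-fold). The other 2 lay near the start of LG2 as assembled, at LG2:5093-5195 and LG2:9835-9923, with backgrounds from 36.0 to 49.0 fragments and folds from 2.00 to 2.29. These 3 sites, chosen after their values were seen, are thus summits over a high local background.

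How often a site called in both drone lists lacked a female call differed with how high it stood in drones. Of 26255 sites called in both drone lists, 2381 (9.07%) had no female call, 1936 (7.37%) had 1, 2527 (9.62%) had 2, 3172 (12.1%) had 3 and 16239 (61.9%) had all 4. The sites that 1 female call kept out of the drone-only set were called in Worker replicate 2 at 855, in Worker replicate 1 at 568, in Queen replicate 1 at 315 and in Queen replicate 2 at 198. The order follows the lengths of the lists, 39158, 36529, 30538 and 28026 peaks, and the part of list length in it was not tested.

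To compare libraries of different depth, each summit pileup was divided by the genome-wide background of its library, which was between 1.04 and 1.47 fragments, and the quotient is called the level. The median level of the drone-only sites was 9.86 in Drone replicate 1 and 11.2 in Drone replicate 2, against 21.8 and 21.4 at the sites called in all 6 lists. The share of sites with no female call was 30.0% where the level of the weaker drone library was under 6, 10.0% from 10 to 15, 0.791% from 20 to 40 and 0.463% from 40 to 80. It was 8.70% at a level of 80 or more, where 14 of 161 sites had no female call. These 14 sites are the 12 named sites, the neighbouring LG15 site at 8092568 and the LG4 site of high background. The share thus was lower in each higher bin up to a level of 80, and the last bin stood above the 3 bins before it and below the first 4.

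The lowest level at which a peak was called was 4.76 in Queen replicate 1, 5.65 in Queen replicate 2, 5.64 in Worker replicate 1 and 5.74 in Worker replicate 2. Both drone libraries stood at or above the highest of these at 2299 drone-only sites (96.6%), at 2 times that level or more at 639 (26.8%), at 3 times at 136 (5.71%) and at 5 times at 27 (1.13%). Most drone-only sites thus stood, in the weaker drone library, under 2 times the highest of these lowest called levels. No female pileup is given where no peak was called, so the female level at a drone-only site is unknown. A call needs a fold over the local background, so where that background is high, as at the LG4 and LG2 sites above, an uncalled female level could lie far above these values.

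**Figure D2:**
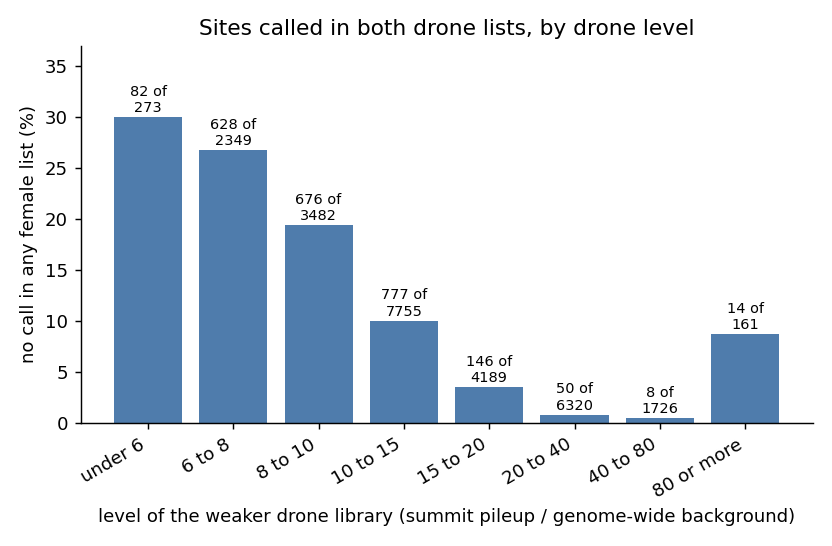
Share of the sites called in both drone lists that had no call in any female list (y axis, percent), by the level of the weaker drone library (x axis, summit pileup over genome-wide background). The numbers above the bars are the sites with no female call of all sites in the bin, and the bars go from 30.0% down to 0.463% and stand at 8.70% for 14 of 161 sites.

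The values at the edge of the rule show how small a difference decided a call. The drone-only site with the lowest −log10 q in its weaker drone list (LG4:12352571-12352692, in LOC408777) had 10.4 in Drone replicate 1 and 2.01 in Drone replicate 2, with pileups of 19 and 7 fragments. Just outside, a site at LG9:11344559-11344695 had a −log10 q of 10.9 and 4.69 in the drone lists and was called in Worker replicate 1 with a −log10 q of 2.01 and 3.06-fold enrichment.

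Most drone-only sites had a female peak in the same neighbourhood. The distance to the nearest female peak had a median of 1261 bp and reached 60032 bp. A female peak lay within 100 bp of 88 sites, within 500 bp of 568 (23.9%) and within 1000 bp of 1019, and none lay within 5 kb of 256 sites (10.8%). For the worker-only sites, with peaks of the other 4 libraries, the median was 1312 bp and the share within 500 bp was 22.5%, and for the queen-only sites these were 1087 bp and 32.4%.

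The drone-only sites lay inside genes and away from gene ends. The summit was inside a gene body at 1956 sites, or 82.2% (95% Wilson interval 80.6 to 83.6), against 77.9% of all merged sites and 73.8% of the sites called in all 6 lists. It was within 200 bp of the first or last base of a gene at 89 sites, or 3.74% (3.05 to 4.58), against 11.9% of all merged sites and 25.4% of the sites of all 6 lists. The worker-only sites were inside gene bodies at 82.4% and near a gene end at 5.72% (4.80 to 6.79). The queen-only sites were inside gene bodies at 64.2% and near a gene end at 4.19%. The intervals cover counting error over sites only, and sites of 1 library are not replicates. The 425 drone-only sites outside gene bodies lay a median of 6077 bp from the nearest gene, against 2672 bp for all merged sites outside genes. The gene table holds no strand and no exons, so starts were not told from ends nor introns from exons.

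**Figure D3:**
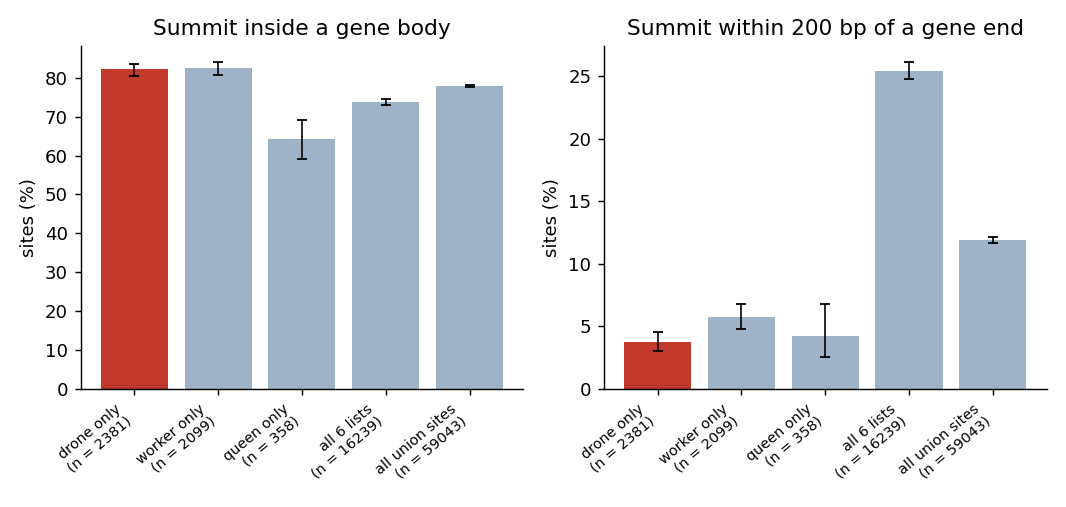
Percent of sites with the summit inside a gene body (left) and within 200 bp of a gene end (right) for the drone-only sites and 4 other classes, with the number of sites under each bar and 95% Wilson intervals as error bars. The drone-only sites stood at 82.2% and 3.74%, and the sites of all 6 lists at 73.8% and 25.4%.

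The share of merged sites that were drone-only was higher in longer genes. It was 2.05% in genes under 10 kb, 3.58% in genes of 10 to 50 kb, 4.71% from 50 to 100 kb, 5.00% from 100 to 200 kb and 5.66% in genes of 200 kb or more, and 3.26% outside gene bodies. The share of worker-only sites over the same steps was 2.70%, 4.21%, 4.06%, 3.77% and 3.83%. The share of sites called in all 6 lists was 39.4% in the shortest genes and 17.8% in the longest. The fold of the drone-only sites differed little between these classes, with medians from 4.69 to 5.09 in Drone replicate 1 and from 4.66 to 5.20 in Drone replicate 2.

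**Figure D4:**
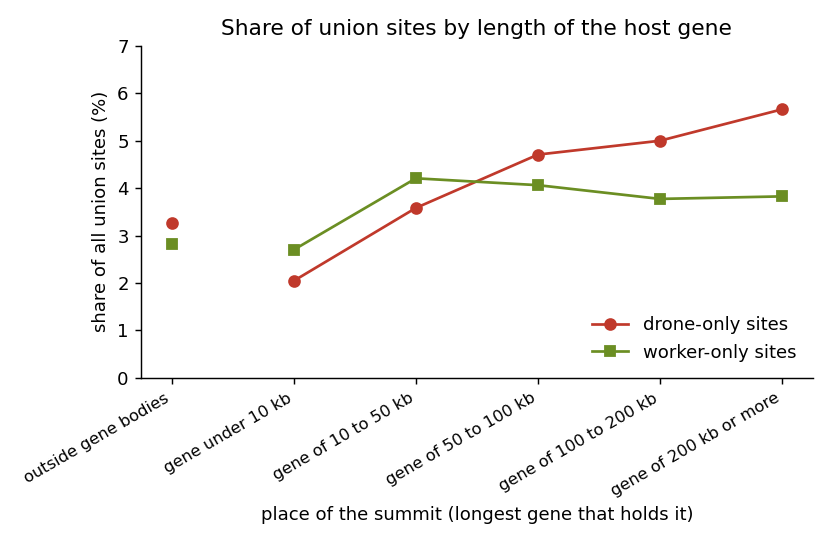
Share of all merged sites that were drone-only (circles) or worker-only (squares), in percent (y axis), for summits outside gene bodies and in genes of 5 length classes (x axis). The drone-only share stood between 2.05% and 5.66% and was higher in each longer class, and the worker-only share stood between 2.70% and 4.21%.

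In all, 1233 of 12255 genes (10.1%) held a drone-only site in the body or within 200 bp of it. Of these, 796 held 1, 437 held 2 or more and 70 held 5 or more. Their median length was 42.8 kb, against 3.81 kb for genes that held other sites alone, and the number of merged sites per gene was not taken into account. In 61 genes the only merged site was a drone-only one. How many genes held a single merged site was not counted, so these 61 are not set against the share of all merged sites. Members of the set were spread over all chromosomes, from 3.29% of merged sites on LG10 to 5.06% on LG12.

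The gene with the most was LOC411155 on LG6, 659 kb long, with 15 drone-only sites among 166 merged sites (9.04%), 2 worker-only sites and 40 sites called in all 6 lists. LOC408372 on LG12 held 14 of 89 (15.7%) and no worker-only site. LOC411617 on LG14 held 12 of 88 (13.6%), and LOC725329 on LG7 held 12 of 258 (4.65%) beside 10 worker-only sites. The share in LOC725329 was close to the 4.03% of all merged sites, and the shares in LOC408372 and LOC411617 were above it. Of the sites in genes of 200 kb or more, 5.66% were drone-only, above the share in LOC725329 and below those in LOC408372 and LOC411617. These genes were chosen for their number of drone-only sites, which favours a high share. Next came LOC724344 with 11 of 158 and Mad with 11 of 113. LOC113218567 held 10 of 100, LOC724292 held 10 of 115 and LOC411157 held 10 of 123. LOC411158 (9 of 74), LOC102656601 (9 of 60) and LOC724736 (9 of 111) completed the 12. These 12 genes were between 288 and 788 kb long and held 132 drone-only sites (5.54% of all).

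The other peaks of each list were also counted in these genes, and the counts were not adjusted for list length. Outside the drone-only sites, LOC411617 held 50 summits of Drone replicate 1 and 33 of Drone replicate 2, against 23, 21, 22 and 30 in the queen and worker lists. Mad held 83 and 53 in the drone lists and 43, 33, 59 and 68 in the female lists. In LOC411155 the drone counts of 96 and 84 lay within the range of the female counts, from 66 to 102. Both drone counts lay above all 4 female counts in 1 of the 12 genes, LOC411617. Among all 112 genes with at least 60 merged sites they did in 5 (4.46%).

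Mad, which in Drosophila carries the signal of bone morphogenetic protein ligands to the nucleus, held the most drone-only sites of the genes with a name. Its 11 drone-only sites were spread over a body of 409 kb, from 90494 to 340032 bp after its first base, and none lay near either end. The folds ran from 3.66 to 6.87 in Drone replicate 1 and from 3.50 to 7.13 in Drone replicate 2, so they were shallow sites like the majority. One at LG15:1232423-1232545 had no female peak within 17743 bp, with pileups of 10 and 9 fragments.

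Drone-only sites also came in small runs. Allowing gaps of up to 5 kb, 366 sites (15.4%) had another drone-only site next to them, against 15.01% of the worker-only sites, and the longest runs held 4 sites, against 3 for the worker-only sites. On LG8, from 6359488 to 6367909 and across LOC551261, LOC113218922 and LOC102655462, 4 of 4 merged sites were drone-only. On LG11, from 4588942 to 4598364 in LOC726993, 4 of 5 were, and the fifth was called in all 6 libraries. On LG7, from 6161937 to 6169268 in LOC724823, 4 of 6 were. The genes of these runs have no name in the table.

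The gene groups were read as counts beside the 4.03% of all merged sites. Their names had to match a symbol or synonym in the gene table, and for several lists few did. They were drawn up with earlier results of these data known. The counts were not tested. Counts of genes stand beside the 10.1% of all genes that held a drone-only site, and these were long genes (median 42.8 kb).

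Genes of sex determination held 2 drone-only sites among 26 merged sites. Both lay in Dsx, the last step of the bee pathway, which is spliced into a male and a female form. Its 91.5 kb held 22 merged sites, 9 of them called in all 6 lists. The first drone-only site (LG5:3530380-3530470), 908 bp from the first base of the gene, had 5.17-fold enrichment and a pileup of 22 fragments in Drone replicate 1 and 5.27-fold and 18 fragments in Drone replicate 2, with a female peak 330 bp away. The second (LG5:3573035-3573203), 43594 bp into the gene, had 6.98-fold and 21 fragments in replicate 1 and 4.72-fold and 11 fragments in replicate 2, with the nearest female peak at 1047 bp. By pileup, the first stood above the drone-only upper quartile in both libraries (18 and 15 fragments), and the second in replicate 1 alone. By fold, the first lay between the median and the upper quartile in both libraries (4.96 to 5.84 and 4.82 to 5.78). The second lay above the upper quartile of fold in replicate 1 and under the median in replicate 2. Csd, Fem and tra2 held 1, 2 and 1 merged sites and no drone-only one, and 1 site of Fem was worker-only.

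Of the opsins, the light-sensing receptors of photoreceptor cells, the ultraviolet opsin gene Uvop held a drone-only site as its only merged site. It lay at LG10:350970-351163, 24 bp inside the last base of the gene as the table lists it, with 5.78-fold enrichment and 13 fragments in Drone replicate 1 and 4.82-fold and 9 fragments in Drone replicate 2. The nearest female peak was 10970 bp away. The blue opsin gene Blop had 2 summits in each of the 6 libraries, Lop1 had none in any, and Lop2 had 1 in Worker replicate 2 alone. The 4 opsin genes are also the 4 matched of 10 photoreceptor markers, and their summed summits were 3 in each drone library and 2 to 3 in the female libraries. A different amount of photoreceptor tissue left after dissection was not tested.

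Receptors for transmitters held 23 drone-only sites among 385 merged sites (5.97%), in 11 of 25 matched genes, beside 13 worker-only and 6 queen-only sites. These 11 genes were between 41.3 and 399 kb long, and length was not taken into account. The serotonin receptor gene 5-ht7 held 5 of its 17 merged sites (29.4%), no worker-only or queen-only site and 1 site called in all 6 lists. The highest of them (LG6:738742-738832) had 10.7-fold enrichment and 25 fragments in Drone replicate 1 and 10.1-fold and 20 fragments in Drone replicate 2, and a female peak lay 845 bp away. The next (LG6:977142-977467) had 9.50-fold and 8.67-fold enrichment, and LG6:815691-815873 had 8.26-fold and 5.78-fold with no female peak within 14862 bp. The other 2 had 4.96-fold and 4.34-fold (LG6:675655-675764) and 5.78-fold and 5.30-fold (LG6:981671-981771). All 5 lay at least 42145 bp from either end of a gene of 399 kb. The other serotonin receptor genes, 5-HT1 and 5-HT2beta, held 1 each, of 15 and 11 merged sites, and 5-HT2alpha held none of 4.

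Nicotinic acetylcholine receptors are cation channels of several subunits that carry fast excitation in the insect brain. Among their genes, nAChRa4 held 6 drone-only sites of 56 and nAChRa7 held 4 of 43, and nAChRa1, nAChRa3 and nAChRa6 held 1 each. The highest in nAChRa4 (LG7:7743119-7743347) had 7.27-fold enrichment and 19 fragments in Drone replicate 1 and 9.09-fold and 20 fragments in Drone replicate 2. At LG7:7596220-7596379 the values were 8.26-fold and 19 fragments in replicate 1 and 5.78-fold and 11 fragments in replicate 2, and no female peak lay within 7241 bp. The 5 remaining subunit genes, each between 2.14 and 3.85 kb long, held 1 merged site each and no drone-only one. The dopamine receptor gene Dop3 held 1 of 22, the tyramine receptor gene TyrR 1 of 25 and the gene Grd, of the family of inhibitory ligand-gated channels, 1 of 11. Dop1 and DopR2 held none of 17 and 19.

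Each of the 6 matched genes of axon guidance and adhesion held a drone-only site, 16 in all among 219 merged sites (7.31%). Nrx-1, the presynaptic adhesion protein neurexin, held 4 of 61. Its postsynaptic partners, the neuroligins, held 4 of 37 in NLG-5, 2 of 37 in NLG-3 and 2 of 30 in NLG-4. The highest of these in Nrx-1 (LG5:2616826-2617053) had 6.20-fold enrichment and 14 fragments in Drone replicate 1 and 7.86-fold and 16 fragments in Drone replicate 2, with no female peak within 6549 bp. In NLG-5 the highest (LG9:7181143-7181538) had 5.96-fold and 6.55-fold enrichment. Dscam, an adhesion gene of neurite self-recognition, held 2 of 20, and the ephrin receptor gene EphR held 2 of 34. The 4 genes for neurexin and neuroligins were between 223 and 338 kb long, in the length class in which 5.66% of all sites were drone-only.

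Nuclear receptors and hormone pathways held 19 drone-only sites among 390 merged sites (4.87%), 11 of them those of Mad. The ecdysone receptor gene Ecr held 2 of 64, and the ecdysone-induced transcription factor genes E74 and E75 held 3 of 68 and 3 of 61. The highest of these (LG11:10355123-10355297, in E75) had 6.39-fold enrichment in Drone replicate 1 and 5.63-fold in Drone replicate 2. Usp, Br-c, InR-2, Kr-h1 and ILP-2 held between 2 and 28 merged sites and no drone-only one, Vg held 1 and no drone-only one, and Jhe and LOC724216 held no site. Among kinases, the cGMP-dependent kinase gene For held 2 of 30, the protein kinase C gene Pkc held 1 of 12 and Camkii held none of 45. Ubx, the only match in the list of visual system and homeobox factors, held none of 30.

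Of the protein-coding genes with a name, 54 of 385 held a drone-only site, against 1233 of all 12255 genes (10.1%). Gene length was not taken into account. Beyond the lists, a few of the 54 were taken for their role after their values were seen. AChE-2, for an acetylcholinesterase that breaks down acetylcholine, held 4 of 28. The highest of its sites (LG8:7548116-7548332) had 9.43-fold enrichment and 22 fragments in Drone replicate 1 and 6.75-fold and 13 fragments in Drone replicate 2. Foxp, a forkhead transcription factor gene, held 4 of 54, beside 3 worker-only sites and 1 queen-only site. Its drone-only sites had folds from 3.37 to 5.01 in Drone replicate 1 and from 3.13 to 4.53 in Drone replicate 2. Cac, for a voltage-gated calcium channel of nerve terminals, held 3 of 47 and no worker-only or queen-only site. Of the 3, LG3:2470009-2470233 had 4.99-fold enrichment and 27 fragments in replicate 1 and 6.57-fold and 28 fragments in replicate 2. A site 427 bp from the first base of the chaperone gene Hsc70-4 (LG1:5357038-5357476) had 33 and 24 fragments and was 439 bp wide.

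Marker genes were read in each library, and with no library of another tissue beside them the tissue origin was not tested. All 3 matched neuron markers, Syt1, Para and brp, had a peak at a gene end in each of the 6 libraries, with 26 to 39 summits in the 3 genes together. The sodium channel gene Para held 1 drone-only site of 25 merged sites. Of 10 genes of the royal jelly protein family and gland secretions, 1 and 2 had a summit in the drone libraries and 3 to 4 in the female libraries, and of 5 fat body genes, 2 had a summit in each drone library and 2 to 4 in each female library. The fat body genes Hex70a and Hex70c had a peak at a gene end in each worker and drone library. In queens, Hex70a had one in replicate 1 and Hex70c in replicate 2. HEX70b had 2, 1, 0 and 1 summits in Queen replicates 1 and 2 and Worker replicates 1 and 2, and 0 in both drone libraries. The gland gene Mrjp4 had 1 summit in each female library and 0 in both drone libraries. Another gland gene, Mrjp8, had 2 to 3 summits in each of the 6 libraries. No drone-only site lay in any of the listed gland or fat body genes, and none of the 8 glia markers matched a name in the table.

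The surroundings of the drone-only sites were described with other summits, which were not among the calls that chose the sites. For each library, the share of its other summits that fell between 500 bp and 10 kb from a drone-only site was divided by the share of the chromosomes in those windows, which covered 38.6 Mb. The density was 1.22 in Drone replicate 1 and 1.21 in Drone replicate 2, and 1.15, 1.16, 1.16 and 1.19 in Queen replicates 1 and 2 and Worker replicates 1 and 2. The mean was 1.217 ± 0.00997 in drones (SD, n = 2) and 1.167 ± 0.0178 in females (SD, n = 4), a difference of 0.0506. Both drone values lay above all 4 female values, and the two-sided exact permutation test gave p = 0.0667, the smallest that 15 ways of choosing 2 libraries from 6 can give. The design cannot reach 0.05, and because drone calls chose the sites that anchor the windows, the libraries are not exchangeable and no support is taken from this p. The difference was 0.0182 (exact p = 0.6) without Drone replicate 1, 0.0309 without Drone replicate 2 and 0.0373 (exact p = 0.267) for windows of 500 bp to 5 kb. Around the worker-only sites, the same measure was highest in the worker libraries, with 1.22 and 1.21 against 1.16 to 1.20 in the other 4, a difference of 0.0396. The libraries whose calls chose the sites thus had the higher values in both cases. With the replicate number kept as a replicate block, 9 ways remained and the exact p was 0.111, again the smallest possible.

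The density of other summits was highest next to the drone-only sites in every library. From 500 to 1000 bp it was 1.54 and 1.51 in the drone libraries and 1.35 to 1.42 in the female libraries. From 2 to 5 kb the drone values of 1.16 and 1.14 lay within the female range of 1.10 to 1.17. From 5 to 10 kb they were 1.22 and 1.22 against 1.13 to 1.17, and from 20 to 50 kb all 6 libraries lay between 0.999 and 1.03. The drone-only sites thus lay where peaks of all 6 libraries were dense, and the drone libraries stood above all 4 female libraries in 4 of the 6 distance steps.

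**Figure D5:**
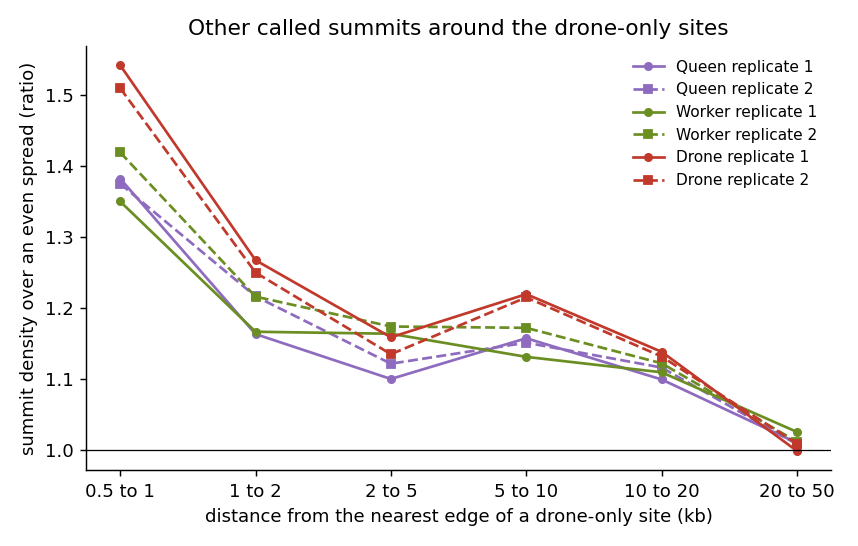
Density of the other called summits of each library relative to an even spread over the chromosomes (y axis, ratio) against the distance from the nearest drone-only site (x axis, kb), with 1 line per library. The drone lines stand at 1.54 and 1.51 in the first step, above the 4 female lines, and all lines are between 0.999 and 1.03 in the last.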

How the data were processed

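The authors aligned reads with BWA (0.7.17) to Amel HAv3.1 and called peaks with MACS2, library by library, on the nucleosome-free class of fragments (0 to 100 bp). How duplicates were handled is not given in the sources used here. The deposited lists give per peak a score, a fold (the ratio of pileup to local background, with 1 added to each), a summit, and −log10 values of p and q. They hold no counts outside peaks, so the read-count model of the study was not used. In the paper, that model gave far fewer regions unique to drones than to workers, or than to queens, in pairwise comparisons. In either comparison, the drone regions of the paper were also far fewer than the 2381 drone-only sites described here. Whether the drone-only sites would pass that model was not tested. Whole summit pileups and local backgrounds were solved from the deposited fold and −log10 p (solved for 100% of peaks within 5% of 1 step, and tested on simulated data), with the most frequent background standing for the whole genome. Summits were placed on the 12255 genes of the RefSeq table of Amel_HAv3.1, whose chromosome names were paired with the lists' by order and checked by how densely summits fell near gene ends (at least 3.56 for the pairing used, at most 1.34 for any other). The table has no strand, exons or sequence, and the 10 motifs planned and the sequences of the sites were not analysed here. The name trp matched the tachykinin gene Tk by a synonym and was left out.

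The sites and gene lists were chosen with earlier results of these data known. Named sites were the 12 best by −log10 q rank, averaged over the drone lists, and those at the edge of the rule. Named genes were the 12 with most sites, the hosts of named sites and the matched genes of the lists, and others are named where said. The one test was the exact permutation test over libraries. Alternatives were calls with −log10 q of at least 5, equal list lengths, each library left out, other overlap, distance and window rules, and a replicate block. The density around worker-only sites, added after seeing the data, is given for comparison. Libraries of equal replicate number did not deviate together (correlation of calls between −0.000325 and 0.00811), so the numbers were not taken as pairs. Nothing in the labels says whether the pools were separate colonies or days. Python 3.11.15 with numpy 2.4.6, pandas 2.3.3 and scipy 1.17.1 was used.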

Additional observations from a re-analysis of the deposited data

How the results depend on the processing

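The number of drone-only sites was 1123 when −log10 q of at least 5 was asked of the drone lists alone, and leaving out 1 library moved it between 2581 and 7174, with 4672 without Drone replicate 1 and 7174 without Drone replicate 2. Leaving out a library also drops its condition from the rule, so a higher count was built in and only its size is informative. Asking −log10 q of at least 5 of every list gave 4.74% near a gene end, 20.7% with a female peak within 500 bp and a median width of 174 bp. Equal list length gave 21.5% with a female peak within 500 bp and a width of 172 bp. Over the 6 libraries left out, these ranged from 3.68% to 4.64%, 21.7% to 26.4% and 95 to 158 bp, and the share inside gene bodies from 81.8% to 82.4%. The share inside gene bodies stayed within its interval in all 9 alternatives. Drone calls chose the sites that anchor the windows in every alternative. No support is thus taken from the sign of the difference in summit density. The difference kept its sign in the 10 alternatives other than the replicate block, from 0.0182 to 0.0587. It was 0.0373 (exact p = 0.267) for 500 bp to 5 kb and, by construction, the same 0.0506 (exact p = 0.111) with the replicate block. With 1 library left out it ran from 0.0182 to 0.0465, and the lowest value was that without Drone replicate 1. The planned work on sequences and motifs was not run. A median of 14 and 12 fragments stood behind a drone call. The study reports more ATAC-seq reads for each drone library than for any female library, so read depth and sex go together here. The genome-wide background was 1.42 and 1.08 fragments in Drone replicates 1 and 2 and from 1.04 to 1.47 in the female libraries. How the set changes with depth was not tested.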
